A study of Mus musculus with 12 samples.

Results

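The intronic assembled transcripts of the mouse testis are RNAs that StringTie, a transcript assembler, built from the sequencing reads and that lie wholly inside an intron of a known gene. In the deposited table they carry the class code i, and those longer than 200 nt were taken, which gave 1617 of 71967 transcripts (2.25%). Only 1 transcript of that class was shorter. Each was set beside its host, the gene of the same symbol, whose level was the sum of its transcripts of the classes =, c, j and o, which follow the annotated gene. The 1617 transcripts belong to 1137 assembled loci in 900 hosts, and 622 of these hosts held a single one. Total RNA of whole testis came from 12 untreated wild-type mice of the strain C57BL/6, 3 per age group, and the groups are named 3M, 6M, 12M and 18M after the age in months.

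Introns are removed from a precursor RNA during splicing, but they can carry transcription units of their own. Known examples are antisense RNAs, which are read from the other strand of the host, host genes of small RNAs, and processed pseudogenes, which are copies of spliced mRNAs that were written back into the genome. Testis, and above all its meiotic and postmeiotic germ cells, is known for transcribing much of the genome that is silent elsewhere. An assembled transcript inside an intron can also hold pieces of unspliced host RNA, and a library without strand information, as used here, does not separate these by direction. For a transcript with several exons the strand was read from its splice sites, whereas for a transcript with 1 exon it was not measured by the library.

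The libraries held between 50924104 and 71803379 estimated reads. Markers of germ cells and somatic cells of the testis were present, and none of the 80 genes of 9 cell type lists was at 0 in all 12 libraries. The summed level of the elongating spermatid list lay between 19830 and 27342 CPM (counts scaled to a common library size). Libraries of the same age correlated between 0.980 and 0.984 (Pearson, log2(CPM + 1), across genes and loci, which are not independent replicates). The library 12M-3 stood apart, since 26.3% of the intronic loci with a mean of 1 CPM or more had their highest value in it, against 15.5% of the other genes and loci. Bulk RNA of a tissue does not separate a change in RNA per cell from a change in the number of cells that carry it.

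Stretches of sequence show what the intronic transcripts contain where the annotation names something. They are taken from the GENCODE vM21 transcripts, on the mm10 build, and the first set shows processed pseudogenes with the letters that differ from the closest protein-coding transcript in capitals. Of the 754 bases of Phgdh-ps1, inside an intron of Il16, the 240 at chr7:83711036-83711275 on the minus strand are shown and hold 12 such letters. Of the 2255 bases of Gm12346, the 180 at chr11:77295074-77295253 on the plus strand, in intron 1 of Ssh2, are shown and hold 2. Each window was chosen as a stretch of that length with the most differences that lies within an exon of the intronic transcript described further on.
Phgdh-ps1: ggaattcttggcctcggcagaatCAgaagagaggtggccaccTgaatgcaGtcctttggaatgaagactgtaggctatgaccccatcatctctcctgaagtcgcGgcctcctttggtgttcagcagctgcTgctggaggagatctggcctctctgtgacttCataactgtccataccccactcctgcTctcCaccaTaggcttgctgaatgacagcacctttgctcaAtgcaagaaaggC
Gm12346: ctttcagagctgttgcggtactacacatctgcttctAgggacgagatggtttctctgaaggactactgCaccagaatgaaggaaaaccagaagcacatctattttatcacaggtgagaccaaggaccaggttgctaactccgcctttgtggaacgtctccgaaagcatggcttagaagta

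The second set shows splice junctions of intronic transcripts that GENCODE also has, with the last 30 bases of the upstream exon in capitals and the first 30 bases of the next exon in lower case. They belong to antisense RNAs in Camta1, Npas3 and A930011G23Rik. For 4930589P08Rik in Camta1 the exon ends are chr4:151376557 and chr4:151378587 on the plus strand. For 1700030L22Rik in Npas3 they are chr12:53303772 and chr12:53309564 on the minus strand. For Gm16226 in A930011G23Rik they are chr5:99682552 and chr5:99689708 on the plus strand.
4930589P08Rik: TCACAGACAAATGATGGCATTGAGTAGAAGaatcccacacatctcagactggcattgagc
1700030L22Rik: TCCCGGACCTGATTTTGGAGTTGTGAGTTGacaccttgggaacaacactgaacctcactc
Gm16226: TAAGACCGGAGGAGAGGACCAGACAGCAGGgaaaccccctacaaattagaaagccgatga

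Most of the intronic transcripts were spliced and ran against their host. Of the 1617, 1072 (66.3%) had 2 or more exons and 545 (33.7%) had 1. Among the spliced ones, whose strand follows from the splice sites, 813 of 1072 (75.8%) were opposite to the host and 259 (24.2%) had its direction. Counted by locus, so that many isoforms of 1 locus do not weigh more, 500 of 612 spliced loci (81.7%) were opposite. Assemblies that touch a host exon carry other class codes in either direction, so these shares hold only for those wholly inside an intron. Of the transcripts with 1 exon, 249 were listed as opposite, 139 as same and 157 had no strand.

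They were short pieces of long introns. Their median length was 1159 nt, with quartiles of 654 and 2175 nt, and the introns around them had a median of 47127 nt, with a range from 1009 nt to 996015 nt. The exons of a transcript covered a median of 3.12% of its intron. The median distance to the nearer edge of the intron was 8243 nt, and 59 transcripts (3.65%) came within 50 nt of an edge. The first intron of the host held 635 of them (39.3%). For 43 transcripts the host record was itself shorter than 200 nt: 40 had a host symbol of 1 of 14 microRNA genes and 3 lay under Bc1. In those records, exons that sum to less than 200 nt are listed with stretches of 72684 nt or more between them, so their hosts are read here only as a symbol and not as a gene with introns.

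The annotation of GENCODE, which is wider than the RefSeq genes that set the class codes, named something for 687 of the 1617 (42.5%) by overlap with an exon on either strand. The largest group were annotated antisense RNAs, with 219 transcripts at 113 loci. Of these, 211 were opposite to the host, a direction that the definition of antisense RNAs already sets. Pseudogenes followed with 172 transcripts at 145 loci, exons of the host with 100, other lncRNAs with 94, other coding genes with 44, genes of the TEC class, which await experimental proof, with 39, and small RNAs with 19. No GENCODE exon was touched by 930 (57.5%), of which 579 were spliced. Of the 2023 splice junctions, 352 (17.4%) were in GENCODE, and 82 of the 1072 spliced transcripts had their whole intron chain there. A RefSeq gene other than the host started within 100 nt of the start of 135 of the 1460 transcripts with a strand, on the same strand, and these were 74 genes. Examples were Gm40155 in Dnajb14, 1700016K05Rik in Ptprm and Pip5k1bos in Pip5k1b.

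The pseudogene group consisted mostly of close copies of protein-coding genes. All 122 pseudogenes but 6 aligned to a protein-coding transcript, with a median identity of 99.2%, and 93 were at least 95% identical over at least 90% of their length. For 32 of the 122 the closest coding gene was a ribosomal protein gene. Reads from such a stretch can also belong to the parent mRNA, so the levels of these transcripts are uncertain.

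The levels of the intronic transcripts centred near 1 FPKM. Their median mean FPKM (fragments scaled by transcript length and by library depth) was 1.18, the median in single libraries lay between 1.11 and 1.31, 1012 (62.6%) reached 1 FPKM and 43 (2.66%) reached 10. Reads were present in all 12 libraries for 1249 and in none for 13. Intergenic transcripts had medians of 1.18 (5540 with 2 or more exons) and 1.09 (2054 with 1 exon), and transcripts opposite to an exon (2182) had 1.31. RefSeq mRNAs had a median of 0.508. The other classes named here were built from the reads, whereas RefSeq mRNAs are annotated records, among which many isoforms share a gene's reads. The medians therefore do not show that intronic RNAs were expressed above mRNAs. All transcripts together had a median of 0.946, and 48.6% of them reached 1 FPKM.

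Hosts were often lower than the transcript inside them. The median of the 900 hosts lay between 2.68 and 2.91 FPKM in single libraries, and the median of the intronic transcripts was 0.421 ± 0.0263 of it (SD, n = 12 libraries). Of the 1617, 621 (38.4%) were above their host in mean FPKM and 401 (24.8%) were above it in every library. For 555 transcripts the host had less than 1 FPKM, and for 24 it was listed at 0 in all libraries. In the plot of intronic transcripts against hosts, levels of the transcripts crowd around 1 FPKM over the whole range of the hosts.

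**Figure D1:**
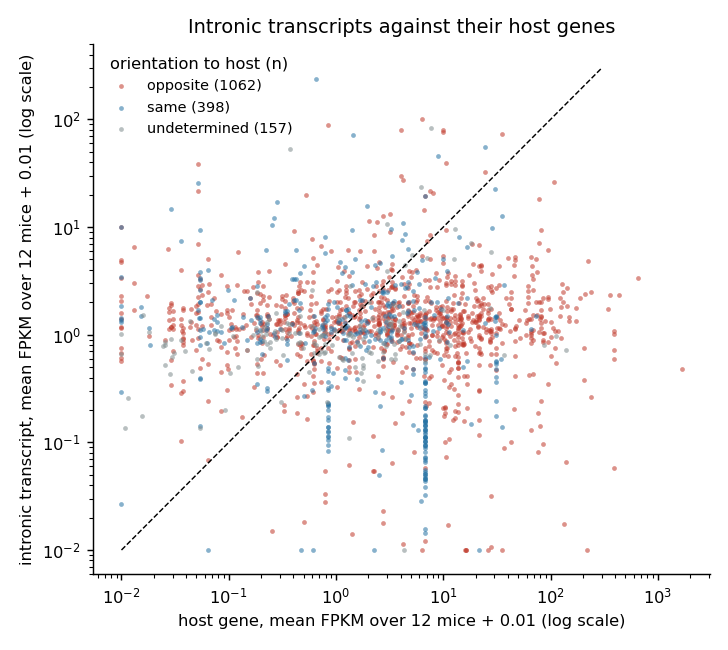
Mean FPKM over 12 mice of each of the 1617 intronic transcripts (vertical) against the summed FPKM of its host gene (horizontal), both on log scales with 0.01 added, coloured by the listed orientation to the host. The dashed line marks equal levels, and 621 points lie above it; the 2 blue columns of points are the many isoforms inside Prkce and Cntnap2.

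Among the 10 highest spliced transcripts was one in Camta1. In this gene, a calmodulin-binding transcription activator, MSTRG.14926.1 had 3 exons, 1 of 2 junctions shared with the antisense RNA 4930589P08Rik shown above, and a mean of 39.1 FPKM against 10.5 FPKM for the host. Its values were 35.6, 41.1 and 40.4 FPKM at 3M, 40.1, 44.1 and 32.0 at 6M, 36.5, 33.5 and 35.2 at 12M and 46.5, 40.0 and 44.6 at 18M. The 18M mice overlapped with the 3M mice.

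In A930011G23Rik and Trhde, the intronic transcript was far above a low host. A930011G23Rik was between 0.0207 and 0.0720 FPKM, whereas MSTRG.15754.1 in its first intron, which carries the junction of Gm16226, had 18.2 to 26.2 FPKM. The 1-exon transcript MSTRG.15755.1 overlaps it on the other listed strand and had 21.6 to 36.4 FPKM. In Trhde, which encodes an enzyme that degrades thyrotropin-releasing hormone, the host was between 0.425 and 0.672 FPKM and MSTRG.2197.1 between 16.1 and 24.8 FPKM. MSTRG.2197.1 overlaps the antisense RNA 4930473D10Rik over 17.05% of its length but does not share its junction. Lrp1b, a large receptor of the LDL receptor family, held MSTRG.11341.1 with 21.9 FPKM, of which 26.4% lies over Gm13461, a copy of Ran with 97.3% identity. Gm2762 was above its intronic transcript, with 108 FPKM against 26.2 FPKM for MSTRG.5268.3.

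Cntnap2, a neurexin family gene that spans 2241 kb, held 78 intronic transcripts, more than any other host. Of these, 74 lay in intron 20, in 2 overlapping loci on opposite strands, MSTRG.16806 with 64 transcripts in the direction of the host and MSTRG.16805 with 10 against it. None of the 74 touched a GENCODE exon. Their highest members were MSTRG.16806.64 with 19.5 FPKM and MSTRG.16805.1 with 19.3 FPKM, against 6.76 FPKM for Cntnap2, while the median of the 78 was 0.143 FPKM. MSTRG.16806.64 was at 0.00354 FPKM in mouse 6M-3 and between 8.11 and 26.8 FPKM in the others. With the reads of its 64 transcripts summed, the locus MSTRG.16806 lay between 55.8 and 182 CPM in all mice. The other hosts with many transcripts were Prkce (24), which encodes protein kinase C epsilon, Zdbf2 (14), an imprinted gene, Gm21119 (14) and Zfp804b (13).

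Among the transcripts with 1 exon, the 5 highest were MSTRG.17618.1 in Sspn (236 FPKM), MSTRG.4469.1 in Gphn (101), MSTRG.10857.1 in Camk1d (88.3), MSTRG.5169.1 in Jarid2 (83.7) and MSTRG.3211.1 in Ssh2 (73.1). Sspn encodes sarcospan of the dystrophin complex, Gphn gephyrin of inhibitory synapses, Camk1d a calcium-dependent kinase, Jarid2 a partner of the Polycomb complex, and Ssh2 a phosphatase of cofilin. The first 4 touched no GENCODE exon. MSTRG.3211.1 lies over Gm12346, the copy of Hsp90aa1 printed above with 99.5% identity over its whole length, and is listed on the strand opposite to that pseudogene.

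Mouse 18M-1 was highest in each of the first 4. The Sspn transcript had 226, 178 and 215 FPKM at 3M, 224, 193 and 211 at 6M, 247, 258 and 295 at 12M and 375, 199 and 215 at 18M. The Jarid2 transcript had 74.1, 63.2 and 73.6 FPKM at 3M, 83.2, 69.3 and 74.98 at 6M, 84.4, 86.2 and 103 at 12M and 140, 73.6 and 78.7 at 18M. The other 18M values of both lay within the range of the younger mice.

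Rn45s, the 45S precursor of ribosomal RNA, was also highest in 18M-1. It was between 1003 and 1470 CPM in 11 mice and at 2110 CPM in 18M-1. Chosen after these values were seen, 8 of 776 intronic loci with a mean of 1 CPM or more had a Pearson correlation of 0.8 or more with Rn45s over the 12 mice (log2(CPM + 0.1)), against 24 of 18822 other genes and loci. They lay in Gphn (0.949), Il31ra (0.942), Jarid2 (0.933), Cdk8 (0.911), Camk1d (0.893), Sspn (0.891), Tmtc2 (0.835) and Bc1 (0.812). All 8 were highest in 18M-1, and the coefficients without that mouse were not computed. The 8 loci held 6.91% of all reads of intronic transcripts and 11.2% of those of 18M-1. Whether ribosomal RNA takes part in these values was not tested, since no genome sequence was used here.

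The 5 transcripts with the highest ratio to a host with reads all had hosts below 0.05 FPKM. In Fam150a, at 0.00321 FPKM, MSTRG.14.1 had 6.48 FPKM and MSTRG.14.2 had 3.03 FPKM, and both overlap the pseudogene Gm7417. In Tmem132d, at 0.0421 FPKM, MSTRG.16200.1 had 38.2 FPKM and ranged from 30.7 to 47.9 FPKM over the mice. MSTRG.20612.1 had 14.8 FPKM and is an expressed stretch over Rpl15-ps3, which is identical to Rpl15 over 615 bases. Its listed host is 1 of the short microRNA records, Mir680-2. The fifth was MSTRG.15755.1 in A930011G23Rik.

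The hosts Vwf and Msh4 were genes of the cell type lists. In Vwf, the von Willebrand factor gene of endothelial cells, MSTRG.17467.1 had 0.984 FPKM, and in Msh4, a gene of meiotic recombination, MSTRG.13621.1 had 0.582 FPKM. MSTRG.13621.1 was listed at 0 in all 3 mice at 3M. It was at 1.31, 0.00386 and 0 FPKM at 6M, at 0.0336, 0 and 1.39 at 12M and at 1.17, 1.56 and 1.52 at 18M, and high values therefore occurred at 3 of the 4 ages. The difference between 3M and 18M did not pass the test over all transcripts (edgeR quasi-likelihood test, adjusted p = 0.137), and the transcript shares exon bases with a transcript of class j, an assembled isoform of a known gene. Msh4 itself was between 6.00 and 7.73 FPKM.

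The share of all estimated reads that fell in intronic transcripts was compared between the ages. It was 0.576, 0.555 and 0.581% at 3M, 0.587, 0.576 and 0.580% at 6M, 0.594, 0.561 and 0.647% at 12M and 0.615, 0.608 and 0.599% at 18M. The means were 0.571 ± 0.0136%, 0.581 ± 0.00580%, 0.601 ± 0.0435% and 0.607 ± 0.00817% (SD, n = 3 mice each). All 3 mice at 18M lay above all 3 at 3M, and the 12M mice spanned both groups because of 12M-3. Without the 8 loci that move with Rn45s, the means were 0.536 ± 0.0109% at 3M and 0.560 ± 0.0135% at 18M, and the lowest 18M mouse (0.546%) stayed above the highest 3M mouse (0.545%) by a small margin. No test was run on this share.

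**Figure D2:**
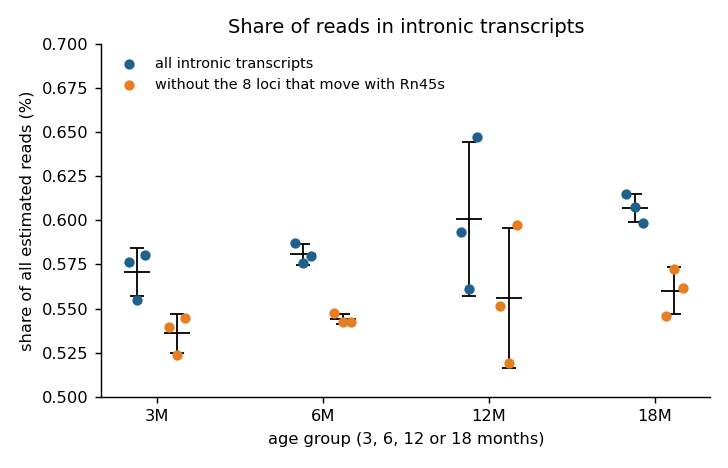
Share of all estimated reads in intronic transcripts (percent, vertical, axis not from 0) per mouse at the 4 ages, with all 1617 transcripts in blue and without the 8 loci that move with Rn45s in orange; black marks are means with SD, n = 3. The 18M mice lie at 0.599 to 0.615%, above the 3M mice at 0.555 to 0.581%, and 12M-3 is highest at 0.647%.

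Almost no single intronic transcript or locus passed a test on age. For the trend over the 12 mice, 0 of 1502 tested intronic transcripts were called (edgeR, adjusted p of 0.05 or less), against 0.0103% of all transcripts tested. DESeq2 called 13 (0.866%), against 1.25% of all transcripts. At an unadjusted p of 0.05 or less there were 94 intronic transcripts (6.26%, against 7.15% of all), of which 69 had a positive slope (4.59%, against 3.5% of all) and 25 a negative one (1.66%, against 3.65% of all). Between 3M and 18M, where a call also needed a 2-fold difference, 0 of 1403 were called by edgeR, against 0.108% of all, and 17 by DESeq2 (1.21%, against 1.74% of all). At an unadjusted p of 0.05 or less without the fold there were 61 (4.35%, against 5.4% of all), of which 45 were higher at 18M (3.21%, against 2.56% of all) and 16 lower (1.14%, against 2.84% of all).

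With the reads of all intronic transcripts of a locus summed, 0 of 1078 loci were called by edgeR for the slope, against 0.173% of all genes and loci. DESeq2 called 10 (0.928%, against 2.26% of all), and 118 had an unadjusted p of 0.05 or less (10.9%, against 15.5% of all). Between 3M and 18M, 0 of 1039 loci were called by edgeR, against 0.0505% of all, and 5 by DESeq2 (0.481%, against 0.312% of all). An unadjusted p of 0.05 or less was reached by 115 (11.1%, against 12.2% of all), of which 89 were higher at 18M (8.57%, against 5.51% of all) and 26 lower (2.5%, against 6.69% of all).

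Between neighbouring ages, 1 of 1032 loci was called from 3M to 6M by edgeR (0.0969%, against 0.0548% of all), and 3 by DESeq2 (0.291%, against 0.165% of all). There, 38 had an unadjusted p of 0.05 or less (3.68%, against 3.85% of all), 24 upward (2.33%, against 2.26%) and 14 downward (1.36%, against 1.59%). From 6M to 12M, edgeR called 0 of 1037, against 0.0253% of all, and DESeq2 2 (0.193%, against 0.198% of all). An unadjusted p of 0.05 or less was reached by 79 (7.62%, against 7.55% of all), 65 upward (6.27%, against 3.56%) and 14 downward (1.35%, against 3.99%). From 12M to 18M, edgeR called 0 of 1047, against 0.021% of all, and DESeq2 3 (0.287%, against 0.126% of all). Here 34 had an unadjusted p of 0.05 or less (3.25%, against 3.51% of all), 18 upward (1.72%, against 1.69%) and 16 downward (1.53%, against 1.82%).

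The slope was also taken relative to the host, for loci whose host had 10 reads or more in every library. There, 1 of 959 was called by edgeR (0.104%, against 0.178% of all). An unadjusted p of 0.05 or less was reached by 137 (14.3%, against 15.6% of all), 111 upward (11.6%, against 7.02%) and 26 downward (2.71%, against 8.57%).

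As a group, however, the intronic loci leaned upward with age. Of the 1078 loci tested, 718 (66.6%) had a positive slope, with a median of 0.00661 log2 units per month, whereas 50.5% of all 24335 genes and loci were positive, with a median of 0.000146. The 862 hosts themselves, taken as all other transcripts under the host's symbol, were positive in 43.9% of cases. At an unadjusted p of 0.05 or less, 99 intronic loci (9.18%) had a positive and 19 (1.76%) a negative slope, against 7.22% and 8.26% of all features. In 139 of 1039 loci (13.4%) all 18M mice were above all 3M mice, against 9.48% of all features, and in 45 (4.33%) they were below, against 10.3%. These are descriptions of 12 libraries in which loci share depth and mice, and no test of the group was made.

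The lean was larger in spliced loci and in those with an annotated antisense RNA. Slopes were positive in 442 of 599 spliced loci (73.8%) and in 276 of 479 loci with 1 exon (57.6%). By GENCODE group, they were positive in 90 of 108 loci over antisense RNAs (83.3%), 39 of 50 over other lncRNAs (78.0%), 430 of 660 over nothing annotated (65.2%), 76 of 128 over pseudogenes (59.4%) and 37 of 65 over exons of the host (56.9%). Loci opposite to the host were positive in 69.4% and loci in its direction in 64.9%. Among loci with a mean of 5 CPM or more, 184 of 246 (74.8%) were positive, against 48.3% of all features at that level. The differences between these sets were not tested.

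The upward lean was not particular to introns. Counted by transcript, 63.4% of the intronic ones had a positive slope, as had 63.6% of the intergenic transcripts with 2 or more exons and 61.6% of those opposite to an exon, while RefSeq mRNAs were positive in 44.3%. In the same mice the round spermatid markers had positive slopes in 8 of 9 genes and the elongating spermatid markers in 9 of 9, and the spermatocyte markers in 6 of 10. Positive slopes were fewer in the spermatogonia markers (3 of 8) and in those of the somatic cells, with 3 of 11 for Sertoli cells, 2 of 9 for Leydig cells, 0 of 7 for peritubular myoid cells, 1 of 6 for endothelium and 3 of 10 tested for macrophages and lymphocytes. Of these genes 2 passed the test, both Leydig cell markers and both falling. The summed Leydig list lay between 1008 and 1176 CPM at 3M and between 685 and 894 CPM at 18M. The part of cell composition in the lean was not tested.

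Of the 3 steps between neighbouring ages, the share of positive changes was highest from 6M to 12M, and there it moved with mouse 12M-3. From 3M to 6M, 52.6% of the loci were positive, from 6M to 12M 63.6% with a median log2 change of 0.0749, and from 12M to 18M 49.9%. Without 12M-3, the step from 6M to 12M had 53.3% positive. The slope over all 12 mice stayed between 64.4% and 68.5% positive when any 1 library was left out.

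**Figure D3:**
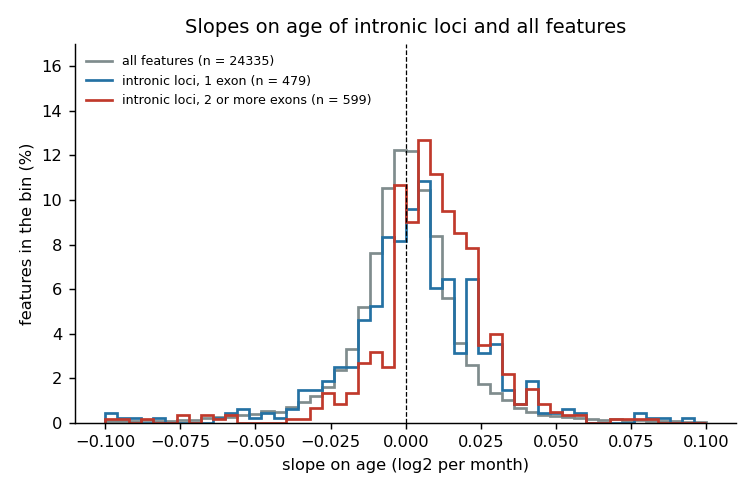
Distribution of the slopes on age (log2 per month, horizontal, shown from -0.1 to 0.1) as the percent of features in each bin, for all 24335 genes and loci (grey), 479 intronic loci with 1 exon (blue) and 599 with 2 or more exons (red). The red outline is shifted to the right of 0, with 73.8% of loci positive, while the grey outline is centred on 0.

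The locus called from 3M to 6M lay in Il16, which encodes a cytokine that attracts T cells. MSTRG.18611 (chr7:83710314-83722267, plus strand) has 2 exons, runs against the host in intron 2 and covers the whole of Phgdh-ps1, a copy of the serine synthesis gene Phgdh with 96.6% identity, whose own strand is that of Il16. Its levels were 12.5, 8.69 and 9.03 CPM at 3M, 0.629, 0.751 and 0.861 at 6M, 11.2, 9.55 and 0.650 at 12M and 11.6, 8.41 and 1.63 at 18M. The 6M mice were all low, but 12M-3 was at their level, and 18M-3, though above them, was far below the other 18M mice. The log2 change from 3M to 6M was -3.74 ± 0.206 (SE, adjusted p = 0.00258, edgeR quasi-likelihood test), and the slope over all ages was 0.00691 ± 0.0675 per month (adjusted p = 0.974). Il16 itself stayed between 0.250 and 0.394 FPKM, and Phgdh between 7.22 and 10.2 FPKM. With all 12 libraries in the fit, which then share 1 estimate of the spread, the adjusted p of the change from 3M to 6M was 1.0, and with the mouse number as a block it was 0.0957.

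Such 2-level patterns were counted in intronic loci and elsewhere, without a test of the difference. With a gap of 4-fold or more between neighbouring mice in the order of log2(CPM + 0.1), and at least 2 mice on either side, 36 of 776 intronic loci with a mean of 1 CPM or more (4.64%) were split, against 293 of 18823 other genes and loci (1.56%). This rule was chosen after the Il16 values were seen. In all 36, mice of the same age stood on both sides of the gap. For most of the 36 this was bound to occur, since the mice above the gap could not fill whole age groups. Those loci cannot show whether the splits follow age. In the remaining loci whole age groups could have been separated, and they were not. Other transcripts shared exon bases with 30 of the 36, against 223 of all 776 intronic loci with a mean of 1 CPM or more.

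Fam155a and Mapkap1 show the values of split loci beside those of the overlapping records. Cdk8 shows a similar pattern between 2 transcripts within 1 locus that was not itself split. In Cdk8, the kinase of the Mediator complex, the 2-exon transcripts MSTRG.16481.1 and MSTRG.16481.2 of 1 locus were almost never present together: the second had 4012 to 7808 reads in 8 mice, in which the first had 0, and the first had 4946 to 9435 reads in the other 4 mice, in which the second had 6 or 7. The locus as a whole varied from 78.4 to 167 CPM, with 18M-1 highest. In Fam155a, MSTRG.19322 on the minus strand and MSTRG.19323 on the plus strand replaced each other, being above 8 CPM alone in all mice but 12M-1, which held 3.83 and 5.13 CPM. Their sum stayed between 8.56 and 10.9 CPM. In Mapkap1, MSTRG.11262 and MSTRG.11263 have the same exon on either strand, and the first was at 87.3 to 116 CPM in all mice, while the second was at the same level in 7 mice and at 0 in 5. Their sum ran from 95.3 to 231 CPM, with the first at 87.3 to 116 CPM where the second had reads and at 95.3 to 112 CPM where it had none.

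**Figure D4:**
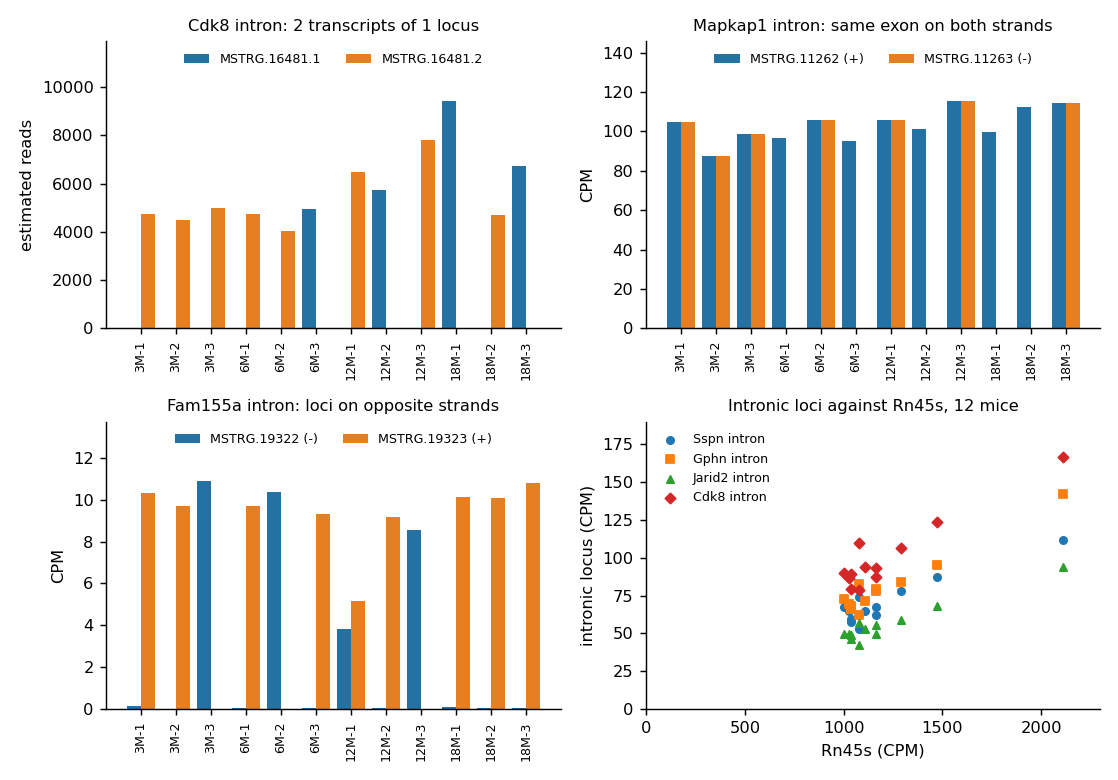
Values per mouse (labels give age and mouse number): estimated reads of the 2 Cdk8 transcripts, CPM of the loci on both strands in Mapkap1 and Fam155a, and CPM of 4 intronic loci against Rn45s. In Cdk8 and Fam155a 1 of the 2 bars is near 0 in nearly every mouse, in Mapkap1 the second bar equals the first or is absent, and in the last panel 18M-1 is the point at the far right.

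No overlapping transcript was found for 6 split loci, picked by the rule set after the Il16 values were seen. Pseudogenes were overlapped by 145 of all 1137 intronic loci, and the share at 1 CPM or more was not computed. Of the 6 split loci, 4 lie over pseudogenes with parents of 96.6% identity or more. Besides Il16, these were Pam with Gm3531, a copy of Btf3 (99.2%), Fhl2 with Gm8210, a copy of Rpl29 (99.4%), and Mob1b with Gm15682, a copy of Rpl21 (98.6%). In Pam, MSTRG.649 had 10.5 to 13.1 CPM in 5 mice and 0 to 0.902 CPM in 7. In Fhl2, MSTRG.235 had 2.39 to 2.78 CPM in 5 mice and 0 in 7. The other 2, in Dock8 and Pcdh11x, touched no GENCODE exon and were at 0 in 3 and 2 mice. A value of 0 here can be a transcript to which the assembler assigned no reads and does not show that the RNA was absent.

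Zfp804b, a host at 0.0436 FPKM, held a further split locus over a pseudogene. All 13 of its intronic transcripts overlap Tubb4b-ps1, a copy of the tubulin gene Tubb4b with 98.4% identity. The locus MSTRG.15062 had 111 to 141 CPM in 6 mice and 3.48 to 13.3 CPM in the other 6, with both levels at each age, and adding the 1 overlapping transcript left a gap of 7.40-fold.

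The locus called relative to its host lay in Ptprh, which encodes a receptor-type tyrosine phosphatase. MSTRG.17697 (chr7:4577786-4580263, listed on the plus strand, opposite to the host) has 1 exon of 2478 nt in intron 6, and GENCODE places the microRNA gene Gm23577 in 4.44% of it. It had 1.64, 1.12 and 1.24 CPM at 3M, 2.36, 1.96 and 1.92 at 6M, 2.68, 2.50 and 3.73 at 12M and 3.47, 2.89 and 3.37 at 18M. The groups at 3M, 6M and 12M did not overlap, and those at 12M and 18M did. The means were 1.33 ± 0.271 CPM at 3M and 3.24 ± 0.308 at 18M (SD, n = 3). The edgeR fit gave a slope of 0.0802 ± 0.0145 log2 units per month (adjusted p = 0.0552) and, relative to the host, of 0.0865 ± 0.0148 (adjusted p = 0.0424). Ptprh was at 0.715 ± 0.0456 FPKM at 3M and 0.753 ± 0.151 FPKM at 18M. The sum of all other transcripts under that symbol, which includes classes outside the host level, was between 4.87 and 7.36 CPM in 8 mice. In the other 4, which were 6M-1, 12M-2, 18M-1 and 18M-3, it was between 13.1 and 14.9 CPM. The slope of this sum was also positive, at 0.0636 ± 0.0274 (edgeR, adjusted p = 0.297). The call of this locus relative to the host was lost when any of 10 of the 12 libraries was left out (edgeR, adjusted p from 0.0619 to 0.0991). It was kept without 12M-3 or 18M-3. Without 12M-2, 18M-1 or 18M-2, 1 intronic locus was called relative to the host, but not the one in Ptprh. DESeq2 called the slope (adjusted p = 1.64e-05).

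The next loci by p-value that leaned upward lay in Trappc9, Npas3, Tmem117 and Uso1, and none passed the adjusted threshold in edgeR. In Npas3, a transcription factor of the bHLH-PAS family, MSTRG.4303 carries the junction of 1700030L22Rik printed above. It had 12.1, 10.1 and 11.3 CPM at 3M, 11.1, 11.5 and 10.8 at 6M, 11.6, 10.9998 and 12.2 at 12M and 14.8, 13.5 and 13.5 at 18M, so that the 18M mice stood above all others (slope 0.0211 ± 0.00530, adjusted p = 0.138). In Trappc9, a subunit of a vesicle tethering complex, the 4-exon transcript of MSTRG.7143 was at 0.791 to 1.03 CPM in the 9 younger mice and at 1.36, 1.51 and 1.34 CPM at 18M (slope 0.0466 ± 0.0101, adjusted p = 0.0985), while the host went from 21.9 ± 1.57 FPKM at 3M to 18.9 ± 1.59 at 18M.

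In Tmem117, the 3-exon locus MSTRG.7536 had means of 0.897 ± 0.471 CPM at 3M and 1.85 ± 0.637 at 18M (adjusted p = 0.151). In Uso1, a tether of transport vesicles at the Golgi, MSTRG.15702 lies in intron 1 over the pseudogene Gm15710, whose parent Rpl13 differs by 1 of 636 bases. It had 11.5, 9.55 and 10.5 CPM at 3M, 9.17, 10.95 and 10.4 at 6M, 11.9, 12.4 and 13.9 at 12M and 12.7, 12.9 and 12.3 at 18M (slope 0.0227 ± 0.00644, adjusted p = 0.168). Rpl13 had a slope of 0.00961 ± 0.00366 in the same direction (adjusted p = 0.251). Gm15710 covers 85.4% of the length of MSTRG.15702. Reads that lie wholly within it cannot be told apart from those of the parent except at that base.

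The 5 loci that leaned downward had 1 exon each and lay in Nxf3, Wdfy3, Cep126, Banp and Sfi1. In Nxf3, of the family of mRNA export factors, MSTRG.22282 had 2.61, 3.84 and 3.48 CPM at 3M, 3.66, 3.44 and 2.99 at 6M, 2.98, 3.08 and 1.90 at 12M and 2.28, 2.08 and 1.48 at 18M. All 3 mice at 18M were below all 3 at 3M (slope -0.0539 ± 0.0136, adjusted p = 0.138), and the host was at 20.9 ± 0.373 FPKM at 3M and 21.1 ± 0.717 at 18M. In Wdfy3, which acts in selective autophagy, MSTRG.15784 went from 7.29 ± 1.11 to 5.30 ± 0.644 CPM (adjusted p = 0.148). In Cep126, a centrosome gene, MSTRG.20495 went from 7.44 ± 0.945 to 5.28 ± 0.687 CPM (adjusted p = 0.175) under a host at 63.0 ± 2.07 and 61.7 ± 3.08 FPKM.

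In Banp, MSTRG.20371 went from 11.8 ± 0.270 to 10.2 ± 0.397 CPM (adjusted p = 0.175). A locus on the other strand, MSTRG.20372, overlaps it and was at 0 in mice 6M-2 and 12M-3. In Sfi1, a centrosome gene, MSTRG.2410 lies in part over Gm11400, a copy of the elongation factor gene Eef2, and went from 1.498 ± 0.289 to 0.898 ± 0.0873 CPM (adjusted p = 0.192). The 10 intronic loci that DESeq2 called for the slope, a share below that of all genes and loci, included those in Ptprh, Trappc9, Npas3, Tmem117, Uso1, Nxf3, Wdfy3 and Cep126.

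**Figure D5:**
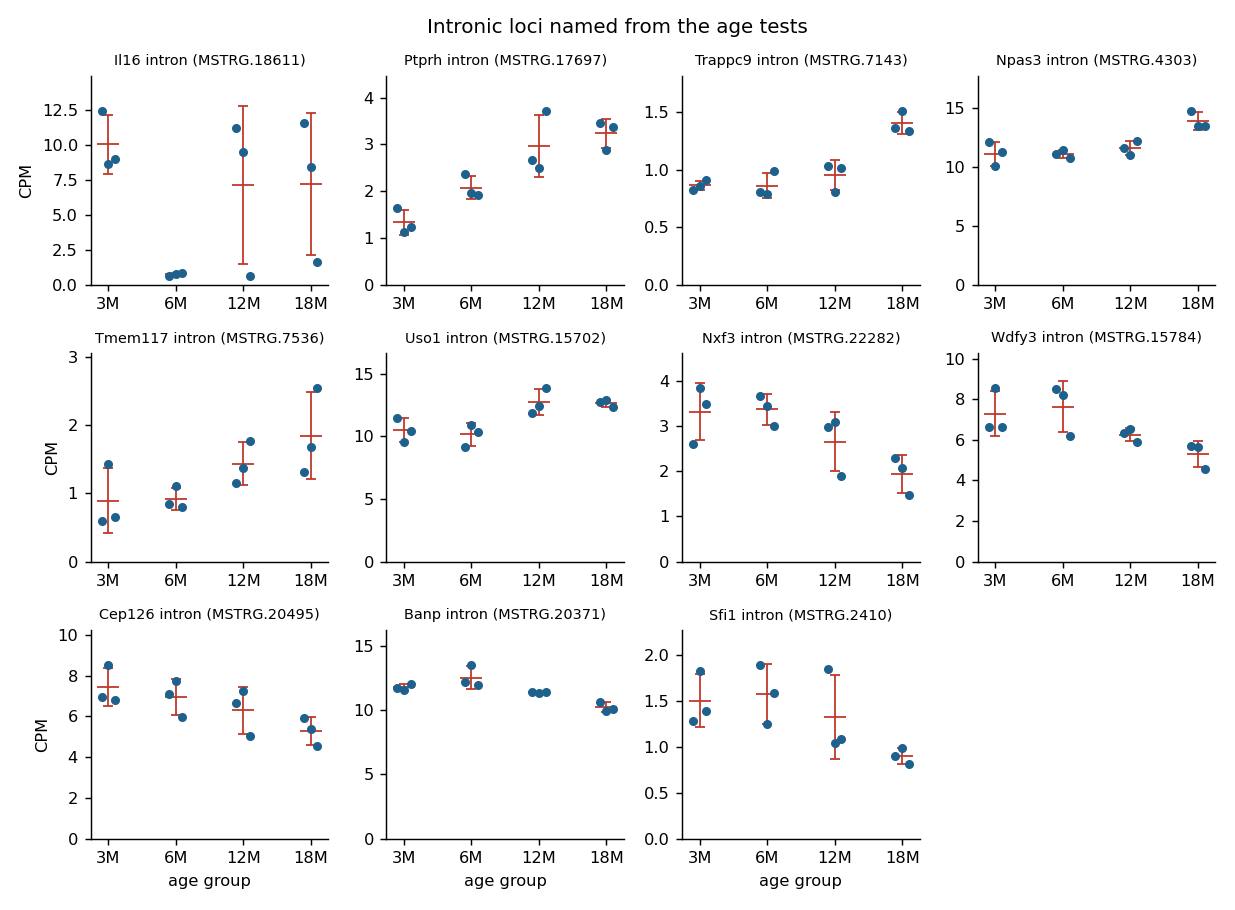
CPM per mouse (points) with mean and SD (n = 3, red) at the 4 ages for the 11 intronic loci named from the age tests, each panel on its own axis from 0. The Il16 locus is low in all 6M mice, at their level in 12M-3 and at 1.63 CPM in 18M-3, and the Ptprh locus is lowest at 3M with a mean of 1.33 CPM and highest at 18M with 3.24 CPM.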

How the data were processed

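Total RNA of whole testis from 12 mice was sequenced as paired reads of 101 nt. Alignment by the authors used HISAT2 and the mm10 build, and transcripts were assembled and quantified with StringTie (version 1.3.3b per the file headers), the same merged transcripts in every library. The authors deposited estimated counts per transcript, which are the coverage multiplied by transcript length, divided by 101 and raised to a whole number, and FPKM values per transcript, which are scaled by length and depth. Groups follow the labels. The members, gene lists and comparisons were chosen with earlier results of these data known.

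Estimated counts were tested with the quasi-likelihood F-test of edgeR 4.0.16 (TMM, filterByExpr with a minimum count of 10, R 4.3.3) over all transcripts, and over 30545 genes and loci. For the latter, intronic transcripts were summed by assembled locus and all others by gene symbol. P-values were adjusted by Benjamini-Hochberg over all features tested. The slope is the log2 change per month over 12 libraries, and pairs of ages were fitted on their own 6 libraries. For the slope relative to the host, the host's reads served as the offset. DESeq2 1.42.0 was the alternative, and the scripts were tested on simulated data. At 50924104 estimated reads or more per library, counting error is small for abundant features but not for loci near 1 CPM. Estimated counts carry assignment error besides. Nothing in the labels says more of the mice, so p-values measure the spread between these samples.

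GENCODE vM21 overlaps were made with bedtools 2.31.1 on either strand, pseudogene parents with blastn 2.17.0, and RefSeq starts with the table given. Named were all called loci, the 5 rising and 5 falling loci of 1 CPM or more with the smallest unadjusted slope p, the 10 highest transcripts with 2 or more exons and the 5 highest with 1, the 5 of 1 FPKM or more with the highest ratio to the host, the 5 hosts with most members, and the highest member in a host of each cell type list. Split loci and loci that move with Rn45s were chosen after seeing the data. Mouse numbers did not pair the samples. Some items covered by these rules are not reported here.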

Additional observations from a re-analysis of the deposited data

How the results depend on the processing

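At an unadjusted p of 0.05 or less, the intronic features called were 94 for the slope over transcripts and 118 over loci, and 137 relative to the host. With the 2-fold threshold, 3M against 18M gave 20 of 1403 transcripts (all features: 1400 of 54472) and 15 of 1039 loci (202 of 23750). The steps gave 9 of 1032 loci (all features: 155 of 23707), 9 of 1037 (193 of 23735) and 10 of 1047 (117 of 23791). Without the threshold, a rule chosen after seeing the data, the intronic counts were 61, 115, 38, 79 and 34, with the shares of all features given above. DESeq2 called 13 and 10 for the slopes over transcripts and loci (1.25% and 2.26% of all features), 17 and 5 for 3M against 18M (1.74% and 0.312% of all), and 3, 2 and 3 for the steps (0.165%, 0.198% and 0.126% of all). With all 12 libraries in the fit, the calls were 1 and 1 for 3M against 18M (all features: 18 of 58289 and 22 of 24335). For 3M to 6M they were then 0 (all features: 2 of 24335). With no filter, 0 were called relative to the host (Ptprh, adjusted p = 0.0504, edgeR). Same-numbered mice deviated together in 0 of 18 pairs (r from -0.074 to 0.0828, none over 0.1), so they share only a number. With the replicate block, 0 loci were called for 3M to 6M (all features: 2 of 23707) and 1 for 12M to 18M (4 of 23791). Relative to the host it was 0 (22 of 24216), and the Il16 slope of 0.00691 turned to -0.0262.

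Leaving out 1 library gave 0 to 1 calls for 3M against 18M over transcripts (1 without 18M-2 or 18M-3) and 0 to 3 over loci (3 without 18M-2, 2 without 3M-3 or 18M-3). It gave 0 to 2 for the slope over loci (2 without 12M-3, 1 without 18M-2) and 1 to 4 for 3M to 6M (4 without 3M-2 or 6M-1, 3 without 6M-2, 2 without 3M-3 or 6M-3). It gave 0 to 3 for 6M to 12M (3 without 12M-3, 1 without 6M-2, 6M-3 or 12M-2), 0 to 4 for 12M to 18M (4 without 18M-2, 2 without 12M-2, 1 without 12M-1, 12M-3 or 18M-3) and 0 to 4 relative to the host (4 without 12M-3, 1 without 12M-2 or any 18M mouse). These runs tested 967 to 1091 intronic loci or 1443 to 1456 intronic transcripts. Calls over all features varied too, with 8 to 25 of 56278 or more transcripts and 14 to 30 of 24023 or more loci for 3M against 18M. The slope over loci had 13 to 116 of 24586 or more, and relative to the host 14 to 116 of 24465 or more. The 3 steps had 18 to 32 of 23973 or more, 8 to 21 of 24017 or more and 8 to 21 of 24073 or more. With 1 library left out, the percent of positive intronic loci ranged from 64.4 to 68.5 for the slope and 63.4 to 68.0 relative to the host. It ranged from 53.3 to 69.7 for 6M to 12M, and the Il16 slope from -0.0229 to 0.0376. The level against hosts, 0.421, was 0.541 over transcripts of 1 FPKM or more and 0.608 against the highest single host transcript. The cause of these changes was not tested. The 36 split loci became 9 with reads of overlapping transcripts added, chosen after seeing the data, a drop that largely follows from the addition itself, since a record as abundant as the locus brings any gap under 4-fold.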
